A study of Mus musculus with 3 samples.

Results

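Transcripts of 10 genes of the p53 pathway and the Bcl2 family were followed in EpiSCs, the stem cell lines that are derived from the postimplantation epiblast of the mouse and are pluripotent. The genes were a fixed list by symbol: Trp53, Mdm2, Aen, Pmaip1, Bbc3, Bax, Bcl2, Bcl2l1, Bcl2l11 and Mcl1. All 10 were found by Entrez Gene identifier among the 17209 genes listed in the tables, and all 10 passed the level filter, a mean of 1 CPM (counts relative to library size), that 12955 genes passed. The cells were of strain 129 at passage 1 and were grown on gelatin in serum with the inhibitors IWR1 and Y27. For the IWR1 library they received 2 µM of that inhibitor during 12 h, for the Y27 library 0.5 µM of Y27 during 12 h, and for the NT library both inhibitors were withdrawn overnight. The labels do not say whether treated cells first went through a withdrawal. IWR1 stabilises Axin and so dampens Wnt signalling, and Y27 (Y27632) reduces actomyosin contraction. The Y27 dose is given as labelled and is low for this inhibitor. There was 1 library per group, so no difference below has a replicate check, no p-value was computed, and a difference from NT can lie in the withdrawal as well as in the treatment.

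Estimated counts summed to 5607725 in the IWR1 library, 5459332 in the Y27 library and 5767550 in the NT library. CPM values serve to compare a gene between libraries. Deposited FPKM values are per length of transcript and serve to compare genes with each other. Bounds in parentheses are exact 95% limits for a fold and take in only the error of counting. The epiblast label held in that all 11 epiblast markers were found in every library, with Pou5f1 at 1318, 1163 and 1462 CPM in the IWR1, Y27 and NT libraries. Their levels were not the same in all libraries. In IWR1 8 of 11 were higher than in NT, against 49.7% of all genes, with a median log2 difference of 0.72. In Y27 6 of 11 were higher, near the 48.2% of all genes, with a median of 0.10. The Wnt target Axin2 was 4.38-fold lower in IWR1 than in NT, and the actin-binding gene Tagln was 3.34-fold lower in Y27 than in NT. Of 10 fibroblast markers Lum was at 0 in all libraries, and the summed level of the list was 73.6 CPM in IWR1 and 62.2 CPM in Y27, against 121 CPM in NT. Primitive streak markers summed to 467 CPM in IWR1 and 1985 CPM in Y27, against 1970 CPM in NT. In bulk RNA, fewer cells of a type and less RNA per cell cannot be told apart.

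The transcription factor p53 (Trp53) is held at a low protein level by the ubiquitin ligase Mdm2, whose gene p53 itself activates. When DNA damage or other stress frees p53 from Mdm2, it induces genes that stop the cell cycle or that bring on apoptosis. In the mitochondrial route to apoptosis, BH3-only proteins such as Puma (Bbc3), Noxa (Pmaip1) and Bim (Bcl2l11) bind anti-apoptotic proteins. This leaves Bax free to open the outer mitochondrial membrane. The anti-apoptotic proteins among the members are Bcl2, Bcl-xL (Bcl2l1) and Mcl1, and not every BH3-only protein binds each of them. Pluripotent cells, including those of the early epiblast, are known to lie close to the apoptotic threshold.

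Because p53 works by binding DNA near its target genes, the RefSeq promoter windows of the members were searched over the 250 bases before the annotated start (GRCm38.p6). The search took in 9 members, 15 windows in all, and left out Pmaip1. Both strands were searched for the consensus half-site of p53, for GTAAACA, the core bound by Foxo factors, and for CTTTGA, a core bound by the Tcf factors of the Wnt pathway. The p53 pattern was found in 4 of the 9 members, Trp53, Mdm2, Aen and Bax, and in 8.20% of all genes with a window. GTAAACA was found in Mdm2, Bbc3 and Bcl2l11 and in 3.54% of all genes, and CTTTGA in Aen and Bax and in 15.8% of all genes. In these windows no match was found for Bcl2, Bcl2l1 and Mcl1. A match is a description of the letters and not a binding site. In Aen the p53 match lay 121 bases before the second of its annotated starts. Of the 3 windows of Bbc3 only the second held a match, and of the 2 windows of Bcl2l11 only the first, the one printed. All 27025 genes had 32851 windows, fewer per gene than the members, so the members had more sequence in which to match. Printed here are Mdm2 and Bax, the feedback gene and the effector gene of the p53 pathway, and Bcl2l11, a BH3-only gene with a higher level in IWR1. Capitals mark the matches. In Mdm2 these are the p53 pattern, starting 186 bases before the start, and GTAAACA, starting 153 bases before it. In Bax the p53 pattern starts 201 bases before the start and overlaps CTTTGA, which starts 194 bases before it, and in Bcl2l11 GTAAACA starts 227 bases before the start.
Mdm2, chr10:117710759-117711008, minus strand: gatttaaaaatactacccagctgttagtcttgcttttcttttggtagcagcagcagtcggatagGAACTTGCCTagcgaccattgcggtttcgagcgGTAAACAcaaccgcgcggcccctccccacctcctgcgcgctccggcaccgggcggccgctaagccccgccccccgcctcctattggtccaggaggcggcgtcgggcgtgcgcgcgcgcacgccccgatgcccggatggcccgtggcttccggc
Bax, chr7:45466899-45467148, minus strand: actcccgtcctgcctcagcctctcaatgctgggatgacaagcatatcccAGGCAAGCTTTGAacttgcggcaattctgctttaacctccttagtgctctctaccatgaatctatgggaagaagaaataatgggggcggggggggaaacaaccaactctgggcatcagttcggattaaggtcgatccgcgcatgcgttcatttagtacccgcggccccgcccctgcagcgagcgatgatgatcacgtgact
Bcl2l11, chr2:128125788-128126037, plus strand: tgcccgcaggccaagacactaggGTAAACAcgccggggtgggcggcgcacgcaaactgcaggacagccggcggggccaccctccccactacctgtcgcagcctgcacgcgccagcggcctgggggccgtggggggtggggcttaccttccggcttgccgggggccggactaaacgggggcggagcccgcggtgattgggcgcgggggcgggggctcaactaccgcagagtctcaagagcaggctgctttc

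The question put to the first 2 comparisons was which of these transcripts differed between cells under either inhibitor and cells kept without both. The difference was largest for Pmaip1, which was about 2-fold higher in each inhibitor library, while Bcl2l1 was about 1.5-fold lower in each. Bcl2l11 was 1.58-fold higher (1.35 to 1.86) in IWR1. The transcripts of p53 itself and of its feedback gene Mdm2 were at most 1.32-fold from NT in both comparisons. The same held for its targets other than Pmaip1, namely Aen, Bbc3 and Bax. On the log2 scale with a pseudocount of 1 CPM, the IWR1 library had 1 of 10 members past 2-fold above NT and 0 of 10 past 2-fold below it, against 2.29% and 2.25% of all 12955 genes. In Y27 over NT the counts were likewise 1 and 0, against 5.58% and 1.34% of all genes. At a threshold of 1.5-fold they were 2 and 1 in IWR1, against 10.8% and 6.37% of all genes, and 1 and 1 in Y27, against 14.9% and 5.53%. The median log2 difference of the 10 members was 0.05 in IWR1 and -0.16 in Y27, against 0.00 and -0.02 over all genes. The NT library is shared by both comparisons.

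**Figure D1:**
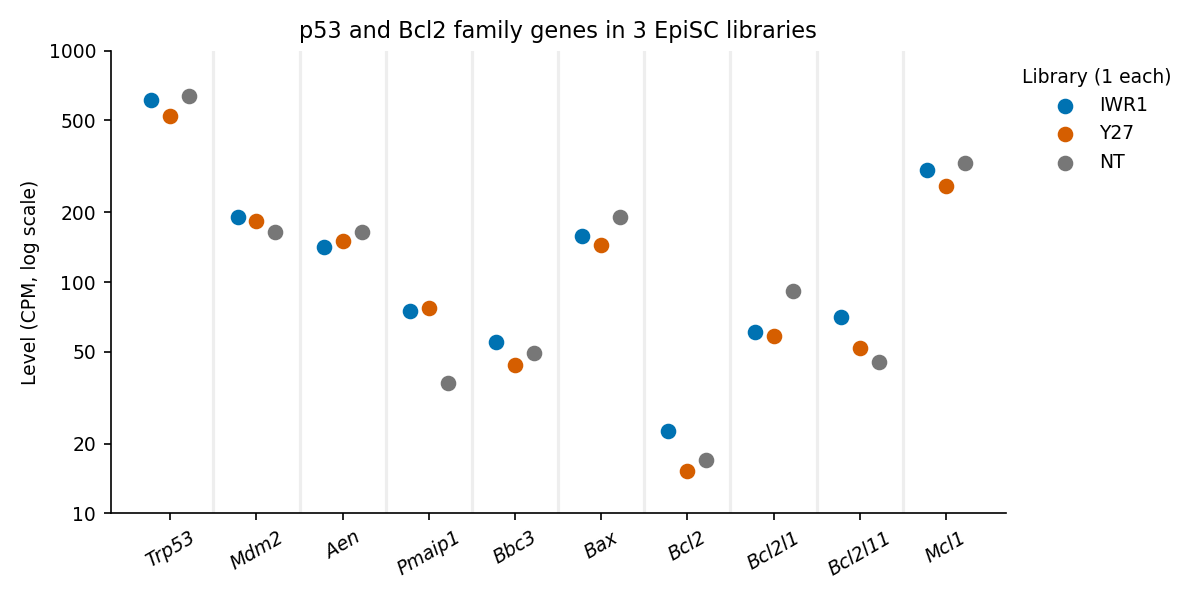
Level of each member in CPM (log axis) in the IWR1, Y27 and NT libraries, 1 point per library. Pmaip1 stands at 75.0 and 77.1 CPM in the IWR1 and Y27 libraries against 36.4 CPM in NT, and Bcl2l1 at 60.7 and 58.4 CPM against 91.6 CPM.

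Trp53 (Entrez Gene 22059) was the most abundant member per length, at 343 FPKM in IWR1, 300.4 FPKM in Y27 and 349 FPKM in NT, which is rank 175, 196 and 191 among the genes listed in each table. On the CPM scale it was at 615 in IWR1 and 524 in Y27, against 637 in NT. The IWR1 library thus lay next to NT, with a fold of 0.965 (0.921 to 1.01), and the Y27 library below both, 1.21-fold lower than NT (1.16 to 1.28). With the trend of the difference on transcript length and GC content removed, the log2 difference of Trp53 was 0.11 in IWR1, against -0.05 without the removal, and was -0.06 in Y27. Mdm2 (17246), the ligase that p53 induces and that in turn degrades it, was at 191 CPM in IWR1 and 184 CPM in Y27, against 165 CPM in NT. Both inhibitor libraries were higher, by 1.16-fold (1.06 to 1.27) and 1.12-fold (1.02 to 1.22), or 0.10 and 0.00 on the log2 scale with the trend removed. Aen (68048), which encodes an exonuclease that p53 induces and that takes part in apoptosis after DNA damage, was at 141 CPM in IWR1 and 151 CPM in Y27, against 165 CPM in NT. It was lower in both, with folds of 0.855 (0.777 to 0.941) and 0.912 (0.830 to 1.00). With the trend removed the log2 difference of Aen was -0.10 in IWR1 and turned to 0.03 in Y27.

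Among the BH3-only genes, Pmaip1 (58801) was counted with 420 reads in IWR1 and 430 reads in Y27, against 206 reads in NT, all of them whole counts. Its level was 75.0 CPM in IWR1 and 77.1 CPM in Y27, against 36.4 CPM in NT. Both inhibitor libraries stood well above NT and close to each other. The folds over NT were 2.06 (1.74 to 2.44) in IWR1 and 2.12 (1.79 to 2.51) in Y27, and counted from the highest log2 difference Pmaip1 held rank 273 and rank 610 of 12955 genes. Its transcripts are poor in G and C (42.1%), and genes of that kind were higher in both inhibitor libraries as a class. With the trend removed, the log2 differences were 0.74 and 0.66, under 2-fold and still over 1.5-fold.

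Bcl2l11 (12125), which encodes Bim, the activator of Bax that is held down by survival signals, was at 70.9 CPM in IWR1 and 52.0 CPM in Y27, against 44.9 CPM in NT. The IWR1 library was the high one. Its log2 difference from NT was 0.65, rank 1174 of 12955 from the highest, and 0.54 with the trend removed. In that library primitive streak markers were also lower, at 467 CPM in all. There 8 of 11 epiblast markers were higher than in NT, against 49.7% of all genes. The part of either marker list in the result was not tested. In Y27 the fold was 1.16 (0.974 to 1.37), and the log2 difference of 0.21 went down to 0.04 with the trend removed. Bbc3 (170770), which encodes Puma, the p53-induced protein that binds all anti-apoptotic members, was at 54.9 CPM in IWR1 and 43.6 CPM in Y27, against 49.4 CPM in NT. The 3 libraries were close, with folds of 1.11 (0.942 to 1.31) and 0.883 (0.740 to 1.05), and both intervals included 1. The 3 BH3-only genes differed from each other in pattern, in that Pmaip1 was higher in both inhibitor libraries, Bcl2l11 mainly in IWR1, and Bbc3 in neither beyond counting error.

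Bax (12028), the effector that forms the pore, was the second most abundant member per length, at 187 FPKM in IWR1 and 174 FPKM in Y27, against 220 FPKM in NT. In CPM it was at 159 in IWR1 and 144 in Y27, against 190.5 in NT. Both inhibitor libraries were lower, 1.20-fold (1.10 to 1.31) and 1.32-fold (1.21 to 1.45). Bax has the shortest transcript of the members, at 869 bases, and its log2 differences of -0.26 and -0.40 went to -0.03 and -0.11 with the length and GC trend removed.

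Of the anti-apoptotic genes, Bcl2l1 (12048), which encodes Bcl-xL, had 340 reads in IWR1 and 326 reads in Y27, against 518 reads in NT. In CPM it was at 60.7 in IWR1 and 58.4 in Y27, against 91.6 in NT. Both inhibitor libraries lay below NT and next to each other, 1.51-fold lower (1.31 to 1.73) and 1.57-fold lower (1.36 to 1.81). From the lowest log2 difference it held rank 825 in IWR1 and rank 583 in Y27 of 12955 genes, and the differences were -0.42 and -0.44 with the trend removed. Of the 6 fibroblast markers compared, 6 were lower in IWR1 and 5 in Y27 than in NT, against 50.3% and 51.8% of all genes. Among those lower, the counting intervals of Col1a2, Col3a1 and Thy1 in IWR1 and of Col3a1, Thy1 and Pdgfrb in Y27 included 1. The part of such cells in the result was not tested. Mcl1 (17210), a short-lived protein that holds Bim and Noxa, was the most abundant of the anti-apoptotic transcripts, at 304 CPM in IWR1 and 261 CPM in Y27, against 326 CPM in NT. It was 1.07-fold lower (1.00 to 1.15) in IWR1 and 1.25-fold lower (1.17 to 1.34) in Y27, and the Y27 difference of -0.32 on the log2 scale was -0.37 with the trend removed. Bcl2 (12043) was the scarcest member, at 3.10 FPKM in IWR1 and 2.53 FPKM in Y27, against 2.29 FPKM in NT. In CPM it was at 22.7 in IWR1 and 15.3 in Y27, against 17.1 in NT, 1.33-fold higher (1.01 to 1.74) in IWR1 and with a fold of 0.895 (0.656 to 1.20) in Y27. For Y27 the scales gave opposite signs, since the deposited transcript length of Bcl2 was 6111 bases for Y27 and 7224 bases for IWR1 and NT. With the trend removed the log2 difference of Bcl2 was 0.10 in IWR1 and -0.60 in Y27. The counts of Mdm2, Bbc3, Bcl2 and Bcl2l11 were partly fractional, so reads were shared out between features and these 4 are less certain than the other 6.

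**Figure D2:**
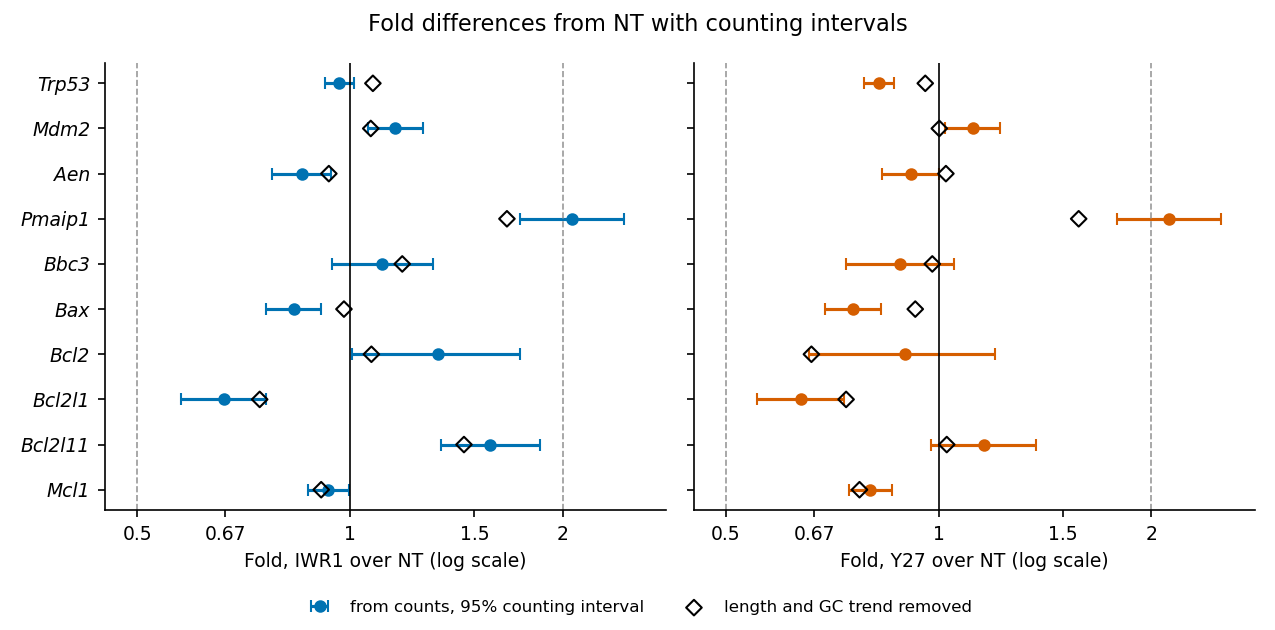
Fold of each member over NT (log axis) in IWR1 and in Y27. Filled points are folds of CPM with exact 95% counting intervals, open diamonds the log2(CPM + 1) difference with the length and GC trend removed, shown as a fold, and dashed lines 2-fold. Pmaip1 lies past 2-fold from the counts and under it with the trend removed, and Bcl2l1 lies below 1 by both.

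Per length, the members could be summed by role. The summed FPKM of Pmaip1, Bbc3 and Bcl2l11 was 70.9 in IWR1 and 63.5 in Y27, against 47.3 in NT. That of Mcl1, Bcl2l1 and Bcl2 was 113 in IWR1 and 102 in Y27, against 129 in NT. The excess of the BH3-only sum in Y27 was as large as that of Pmaip1. Bbc3 and Bcl2l11 together were at 33.9 FPKM in Y27 and 33.9 FPKM in NT, and at 42.7 FPKM in IWR1. In Y27 these 2 offset each other, with Bcl2l11 at 11.3 FPKM against 9.41 FPKM in NT, and Bbc3 at 22.6 FPKM against 24.5 FPKM. The 8 other BH3-only genes summed to 155 FPKM in IWR1 and 156 FPKM in Y27, against 167 FPKM in NT, lower in both inhibitor libraries. The largest parts of that sum were Bnip3l, Becn1 and Bnip3, at 49.6, 43.8 and 42.2 FPKM in NT. They stood at 48.9, 39.9 and 34.9 FPKM in IWR1, and at 49.1, 43.8 and 33.8 FPKM in Y27. Bid came next, at 18.6 FPKM in IWR1 and 17.0 FPKM in Y27, against 15.2 FPKM in NT. By CPM, 3 of the 8 were higher than NT in IWR1 and 1 in Y27, against 49.7% and 48.2% of all genes. All 11 BH3-only genes together were at 226 FPKM in IWR1 and 219.7 FPKM in Y27, against 214 FPKM in NT. The sum over the whole class thus lay closer to NT than that of the 3 members. Bnip3l, Becn1 and Bnip3 weigh most in it, and the 8 other genes were not split further by role. Deposited FPKM values do not include the scaling factors used for CPM, which were 0.998 in IWR1, 1.02 in Y27 and 0.980 in NT. The order of Y27 and NT in the sum of all 11 is therefore not secure. Pmaip1 made up 39.7% of the BH3-only sum in IWR1 and 46.6% in Y27, against 28.3% in NT, where Bbc3 held the largest share at 51.8%. Mcl1 held most of the anti-apoptotic sum in every library. It made up 76.0% in IWR1 and 74.4% in Y27, against 70.5% in NT. Bcl2l1 made up 21.3% in IWR1 and 23.1% in Y27, against 27.7% in NT, and Bcl2 no more than 2.73% in any library. These are transcript levels, and protein was not measured.

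**Figure D3:**
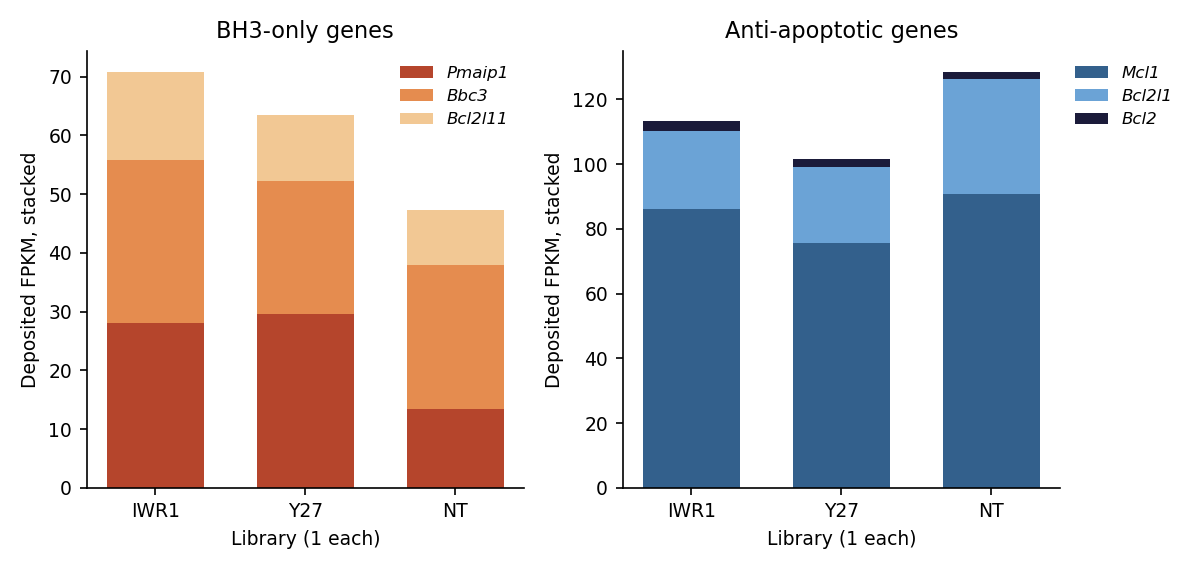
Deposited FPKM values of the 3 BH3-only genes and of the 3 anti-apoptotic genes, stacked, in the IWR1, Y27 and NT libraries. The bars of these 3 BH3-only genes are higher in the inhibitor libraries, in Y27 by as much as Pmaip1, since Bcl2l11 and Bbc3 offset each other. The anti-apoptotic bars are lower, with Bcl2l1 at 24.1 and 23.5 FPKM in IWR1 and Y27 against 35.7 FPKM in NT.

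The third comparison, IWR1 over Y27, asked whether the inhibitors differed from each other. At 2-fold 0 of 10 members were higher and 0 lower, against 1.38% and 2.9% of all genes, and at 1.5-fold again 0 and 0, against 5.06% and 8.2%. Once the trend was removed, 1 was past 1.5-fold higher, Bcl2 at 0.68 on the log2 scale, against 4.96% of genes, and 0 lower, against 7.34%. The level was higher in IWR1 for 8 of 10 members, against 50.1% of all genes. Among the 8, the counting intervals of Mdm2, Bax and Bcl2l1 included 1. The median log2 difference of the 10 was 0.18, against 0.00 over all genes, and 0.11 with the trend removed. On the CPM scale the members farthest apart were Bcl2, at 22.7 CPM in IWR1 and 15.3 CPM in Y27, a fold of 1.49 (1.12 to 1.98), and Bcl2l11, at 70.9 and 52.0 CPM, a fold of 1.36 (1.17 to 1.59). Bbc3 followed with a fold of 1.26 and a lower bound of 1.06. On the deposited FPKM scale the log2 difference of Bcl2 was 0.22, less than that of Bcl2l11 at 0.38 and of Bbc3 at 0.29. Trp53 was 1.17-fold higher (1.12 to 1.23) in IWR1 than in Y27 and Mcl1 1.17-fold higher (1.09 to 1.25). Pmaip1 and Bcl2l1, the members farthest from NT in Y27, had folds of 0.973 (0.849 to 1.12) and 1.04 (0.890 to 1.21) between the inhibitors, both intervals including 1, and with the trend removed the signs turned, to 0.06 and -0.01 on the log2 scale.

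Other genes of the pathway were described from 5 lists. The regulators of p53 had a median log2 difference of 0.34 in IWR1 and 0.45 in Y27 over 14 genes, against 0.00 and -0.02 over all genes. Of the 14, 1 was at least 2-fold higher and 1 at least 2-fold lower in IWR1, against 2.29% and 2.25% of all genes, and 3 and 0 in Y27, against 5.58% and 1.34%. Mdm4, a relative of Mdm2 that holds p53 inactive, was at 119 CPM in IWR1 and 140 CPM in Y27, against 55.5 CPM in NT, folds of 2.15 (1.87 to 2.46) and 2.52 (2.21 to 2.88). The damage-sensing kinase genes Atm and Atr were 2.20-fold (1.93 to 2.50) and 2.36-fold (1.91 to 2.94) higher in Y27, and 1.82-fold (1.59 to 2.08) and 1.93-fold (1.54 to 2.42) higher in IWR1. Cdkn2a, whose product Arf inhibits Mdm2, had 2 reads in IWR1 and 6 reads in Y27, against 11 reads in NT, and a ratio of 0.184 (0.0198 to 0.841) in IWR1. With the trend removed 0 of the 14 were past 2-fold in either comparison, and the medians were 0.25 in IWR1 and 0.22 in Y27. The log2 differences of Mdm4 were then 0.66 in IWR1 and 0.66 in Y27, and those of Atr 0.30 and 0.25.

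Of 30 other p53 target genes 27 passed the level filter, and Fas, Trp53cor1 and Dram1 did not. Their median log2 difference was 0.03 in IWR1 and -0.02 in Y27, next to that of all genes. In IWR1 0 of 27 were past 2-fold, against 2.29% of all genes higher and 2.25% lower. In Y27 0 were lower, against 1.34% of all genes, and 2 were higher, near the 5.58% of all genes. These were Trp53inp1, a p53-induced gene of autophagy and cell death, at 344 CPM in Y27 against 143 CPM in NT, 2.40-fold higher (2.21 to 2.61), and Polk, a translesion DNA polymerase gene, 2.43-fold higher (1.83 to 3.25). After removal of the trend they were at 0.25 and 0.61 on the log2 scale. Cdkn1a, which encodes the cell cycle inhibitor p21 and is the best known p53 target, was at 127 CPM in IWR1 and 179 CPM in Y27, against 207 CPM in NT. It was 1.63-fold lower (1.48 to 1.79) in IWR1 and 1.16-fold lower (1.06 to 1.26) in Y27, and the log2 difference was -0.54 in IWR1 and 0.01 in Y27 with the trend removed.

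Among other multidomain Bcl2 family genes, 5 of 10 were compared, since the Bcl2a1 genes were not listed and Bcl2l10 and Bcl2l14 were at 0 or 1 read. The median was -0.11 in IWR1 and -0.32 in Y27, against 0.00 and -0.02 over all genes, and -0.03 and -0.20 with the trend removed. In either comparison 0 of 5 were past 2-fold. The shares of all genes were 2.29% higher and 2.25% lower in IWR1, and 5.58% and 1.34% in Y27. Bak1, the partner of Bax at the mitochondrial membrane, was at 108 CPM in IWR1 and 101 CPM in Y27, against 137 CPM in NT, 1.28-fold lower (1.15 to 1.42) and 1.36-fold lower (1.22 to 1.52). Bok, a related effector, was 1.53-fold lower (1.19 to 1.96) in Y27, and Bcl2l13, a mitochondrial family member, 1.25-fold lower (1.12 to 1.39) in Y27. With the trend removed the log2 differences of Bak1 were -0.17 in IWR1 and -0.20 in Y27. Those of Bok and Bcl2l13 in Y27 were -0.33 and -0.50. The 8 other BH3-only genes had medians of -0.10 in IWR1 and -0.23 in Y27, and of -0.325 and -0.215 with the trend removed. In either comparison 0 of 8 were past 2-fold, against the same shares of all genes. Bad, which survival kinases inactivate, was at 6.25 CPM in IWR1 and 8.42 CPM in Y27, against 12.0 CPM in NT, a fold of 0.520 (0.335 to 0.793) in IWR1. Bnip3, a hypoxia-induced gene of mitochondrial autophagy, was 1.23-fold lower (1.07 to 1.43) in IWR1 and 1.30-fold lower (1.12 to 1.51) in Y27. With the trend removed Bad was at -0.62 on the log2 scale in IWR1, and Bnip3 at -0.54 in IWR1 and -0.70 in Y27.

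Of the 19 genes of the apoptosome, the caspases and their inhibitors, 0 were past 2-fold in IWR1. The shares of all genes there were 2.29% higher and 2.25% lower. In Y27 0 were lower, against 1.34% of all genes, and 1 was higher, near the 5.58% of all genes. The medians were 0.03 and -0.09, and -0.10 and -0.02 with the trend removed. The gene past 2-fold was Xiap, an inhibitor of caspases, at 67.3 CPM in IWR1 and 89.1 CPM in Y27, against 39.1 CPM in NT, 1.72-fold (1.46 to 2.04) and 2.28-fold (1.94 to 2.68) higher. Birc2 and Birc6, of the same family, were 1.57-fold and 1.58-fold higher in IWR1 and 1.84-fold and 1.61-fold higher in Y27. After removal of the trend Xiap was at 0.02 and 0.01 on the log2 scale in IWR1 and Y27, Birc6 at 0.24 and 0.04, and Birc2 at 0.37 and 0.48.

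The length and GC content of the transcripts moved with these differences. Over all genes with GC content under 45% the median log2 difference was 0.35 in IWR1 and 0.50 in Y27, and over those at 55% or more it was -0.16 and -0.20. Genes with transcripts of at least 5000 bases had medians of 0.18 and 0.26, and those under 2000 bases of -0.11 and -0.19. Among the members Pmaip1 had the lowest GC content, at 42.1%, and Bbc3 the highest, at 65.2%. In IWR1 Pmaip1, Bcl2l11, Bcl2 and Bbc3 lay above the middle 50% of genes of their GC class and Bcl2l1 below it, and in Y27 Pmaip1 lay above it and Bcl2l1, Mcl1 and Bax below it. The nuclear RNA Malat1 was at 628 CPM in IWR1 and 857 CPM in Y27, against 264 CPM in NT, and Neat1 at 47.2 and 51.8 CPM, against 21.9 CPM. Such RNAs vary with the quality and the nuclear share of an RNA sample, and the part of RNA quality in the differences of Pmaip1, Mdm4 and Xiap was not tested. With the trend removed, 1.29% of genes were at least 2-fold higher and 2.05% lower in IWR1, 1.58% and 1.15% in Y27, and none of the members was past 2-fold. At 1.5-fold with the trend removed, Pmaip1 was the member higher in IWR1, against 6.39% of genes, with 0 members lower, against 5.96%. In Y27 Pmaip1 was higher, against 7.44%, and Bcl2 lower, against 5.08%.

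**Figure D4:**
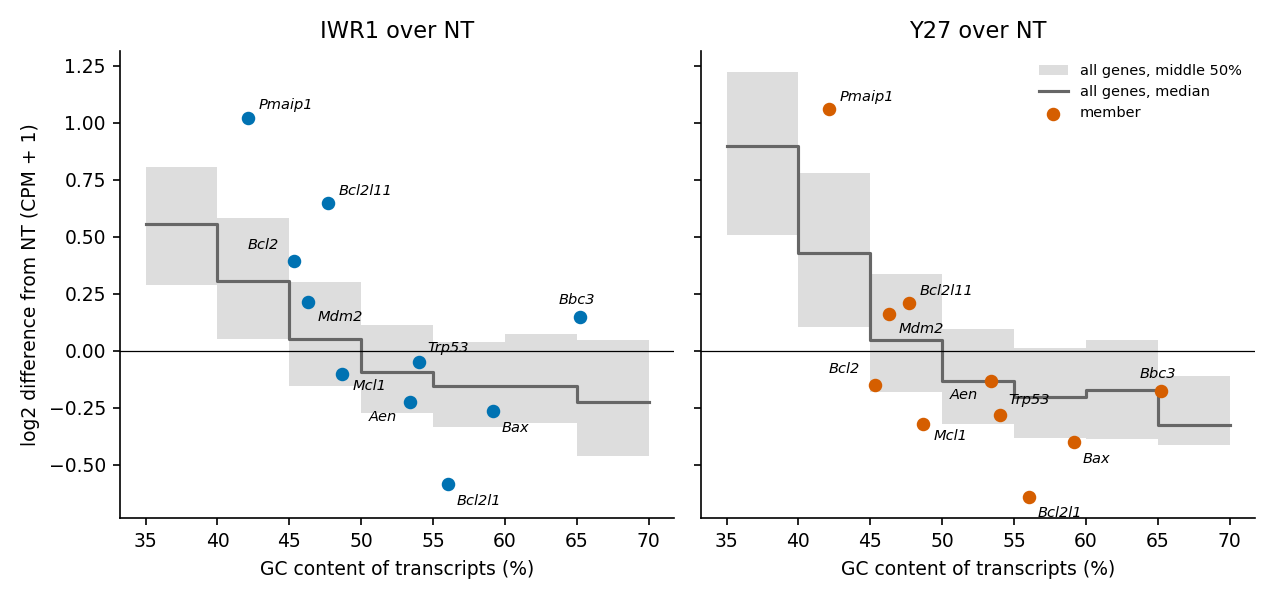
log2 difference from NT, as log2((CPM + 1)/(CPM + 1)), against GC content of the transcripts, for IWR1 and Y27. The stepped line and band are the median and the middle 50% of all genes in GC classes 5 percentage points wide, and points are the members. Pmaip1 lies above the band and Bcl2l1 below it in both panels.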

How the data were processed

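RNA-seq tables of 3 EpiSC libraries, 1 per group, were used, with the labels giving the group of each. Libraries were prepared from total RNA by standard Illumina protocols, per the labels. Per the file headers, the tables hold an expected count, an FPKM value and a length for every gene. The deposited expected counts estimate the reads of a gene without normalization, and the deposited FPKM values divide them by transcript length and library sum. The submitters' processing notes name Bowtie 0.12.2 and mm8. Software for the estimation was not given in the sources used here. Symbols (99.7% of identifiers) and promoters came from RefSeq on GRCm38.p6, and GC content (99.0% of genes compared) from GENCODE transcripts, so no gene coordinates are given beside those of the printed promoters.

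A gene missing from 1 library's table was set to 0 there. Scaling used TMM (edgeR 4.0.16, R 4.3.3), with factors of 0.998, 1.02 and 0.980 for IWR1, Y27 and NT. Genes averaging 1 CPM or more over the libraries were compared on the log2 scale after adding 1 CPM, so that differences of low genes are understated, at a threshold of 2-fold. Rounded expected counts were used for the scaling factors and for the 95% intervals of folds, by the exact conditional binomial method. The trend on length and GC content was fitted over all genes as a cubic polynomial of both. No test was made, since every group is a single library. Members and lists were chosen with earlier results of these data known. Named from each list were genes past 2-fold in any pair and otherwise the 2 farthest from NT in each inhibitor library among those averaging 5 CPM or more. The alternatives were upper quartile scaling, DESeq2 1.42.0 size factors, plain library totals, pseudocounts of 0.1 or 5 CPM, no level filter or 5 CPM, a 1.5-fold threshold, the deposited FPKM values and the removal of the trend. The steps were tested on simulated data. Computations ran in Python 3.11.15 (pandas 2.3.3, numpy 2.4.6, scipy 1.17.1) and plots in matplotlib 3.10.9.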

Additional observations from a re-analysis of the deposited data

How the results depend on the processing

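The call of Pmaip1, the only member past 2-fold, stood close to the threshold. In both inhibitor libraries the count of members past 2-fold was 1, and it was 0 with a pseudocount of 5 CPM, 0 with upper quartile scaling and 0 after removal of the trend on length and GC content. At 1.5-fold it was 3 in IWR1, against 10.8% of all genes higher and 6.37% lower, and 2 in Y27, against 14.9% and 5.53%. The log2 difference of Pmaip1 ranged from 0.74 to 1.05 in IWR1 and from 0.66 to 1.12 in Y27, lowest with the trend removed. Bcl2l1 ranged from -0.63 to -0.42 and from -0.70 to -0.44, and Bcl2l11 in IWR1 from 0.54 to 0.67. Directions turned for Trp53 in IWR1 (0.11) and Aen in Y27 (0.03) with the trend removed, and for Bcl2 in Y27 (0.10) with FPKM. Between IWR1 and Y27 they turned for Pmaip1 (0.06) and Bcl2l1 (-0.01) with the trend removed.

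At 1.5-fold, 10.8% of all genes were higher and 6.37% lower in IWR1, and 14.9% and 5.53% in Y27. Of the lists, the p53 regulators past 2-fold numbered 2 of 14 in IWR1. They numbered 1 with a pseudocount of 5 CPM or a mean of at least 5 CPM, 0 with the trend removed and 6 at 1.5-fold. In Y27 they numbered 3, 0 with the trend removed and 5 at 1.5-fold. Other p53 targets numbered 2 of 27 in Y27 and 0 with the trend removed, and 2 in IWR1 and 6 in Y27 at 1.5-fold. Genes of the apoptosome list numbered 1 of 19 in Y27 and 0 with the trend removed, and 3 in each library at 1.5-fold. At 1.5-fold there was also 1 of 8 other BH3-only genes in IWR1 and 1 of 5 other multidomain genes in Y27. Over all genes, 589 were past 2-fold in IWR1 over NT, but 1006 with a pseudocount of 0.1 CPM, 178 with 5 CPM, 370 with a mean of at least 5 CPM, 316 with FPKM and 2230 at 1.5-fold. In Y27 over NT there were 896, but 383 with a pseudocount of 5 CPM, 591 with FPKM, 350 with the trend removed and 2648 at 1.5-fold. In IWR1 over Y27 there were 555, but 906 with a pseudocount of 0.1 CPM, 199 with 5 CPM, 315 with a mean of at least 5 CPM, 330 with FPKM and 1717 at 1.5-fold. The cause of these changes was not tested. No paired analysis was possible because each group had 1 library. Depth limits the genes with few reads, among the members Bcl2, with 127, 85.3 and 96.6 counts in IWR1, Y27 and NT.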
